A study of Drosophila melanogaster with 2 samples.

Results

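The dosage compensation genes of Drosophila melanogaster considered here were msl-1, msl-2, msl-3, mle, mof and Clamp, with the non-coding genes roX1 and roX2. They were chosen by name, for their known function, and were 8 of the 18277 genes annotated on the major chromosome arms. The data came from a chromatin immunoprecipitation of CG4360, a zinc finger protein, made with an antibody against GFP in whole embryos 0 to 24 h old. The strain, labelled CG4360-GFP, carried a transgene that makes CG4360 fused to enhanced green fluorescent protein (eGFP). There was 1 group with 2 biological replicates, and no untagged or input sample was analysed here. The labels do not name the promoter that drives the transgene. The labels record no sex, so male embryos, in which the MSL complex works, cannot be told apart from female embryos. In a whole embryo, a few cells with strong binding and many cells with weak binding cannot be told apart either.

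In fly males the single X chromosome is transcribed at a raised rate so that its output equals that of the female pair of X chromosomes. The male-specific lethal (MSL) complex does this: MSL-1 is its scaffold, MSL-2 is the male-specific ubiquitin ligase that recognises the X, MSL-3 carries a chromodomain, MLE is an RNA helicase that remodels the roX RNAs, and MOF acetylates lysine residues of histone H4 along active genes. The non-coding roX1 and roX2 RNAs, both made from the X, are part of the complex, and their genes are also entry sites for it. CLAMP is a zinc finger protein that binds GA repeats at entry sites on the X. In females the Sex-lethal protein, SXL, blocks the translation of msl-2 mRNA.

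The sequences behind the calls described here are the CAA words and the GA words of these genes. CAACAAC, read on either strand, lay within 50 bp of the summit in 45.1% of the 5692 conservative peaks and in 4.34% of the 120944 calls of the same list that missed the threshold, and it was the most frequent at peaks of the 6 words searched. GAGAGAG is a run of the GA repeat that CLAMP and the GAGA factor bind. All sequences are from the dm6 reference, on the strand of the named gene, with the words in capitals. The first is the only site at these genes under a conservative peak, and it lies beyond the 3′ end of mof in the 5′ UTR of GAA1 (chrX:5873282-5873310, minus strand). The next 5 lie in coding sequence that had no conservative peak, in mof (chrX:5876030-5876058, minus strand), msl-1 (chr2L:18686972-18687000, minus strand), msl-2 (chr2L:3464816-3464844, minus strand) and Clamp (chr2L:22167651-22167680 and chr2L:22167941-22167969, minus strand). The last pair holds the GA words of roX2, up to the summit of its strongest call (chrX:11580204-11580376, plus strand), and of roX1, around a summit (chrX:3861252-3861352, minus strand).
mof and GAA1, under the peak: gtccgattcgtGTTGTTGtgattcgggat
mof, coding: tcaaagggacaCAACAACtggggctgcca
msl-1, coding: ataactgaaaaGTTGTTGcaactaaagcc
msl-2, coding: acaaatagcggCAACAACtttgctgtctc
Clamp, coding, overlapping words: acaaacagcgCAACAACAACagcagctctt
Clamp, coding, 1 word: gggaacagcagCAACAACagcaacataac
roX2, exon: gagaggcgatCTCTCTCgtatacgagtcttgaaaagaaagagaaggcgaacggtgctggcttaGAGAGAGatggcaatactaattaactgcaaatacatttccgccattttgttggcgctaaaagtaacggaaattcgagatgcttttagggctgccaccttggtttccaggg
roX1, exon: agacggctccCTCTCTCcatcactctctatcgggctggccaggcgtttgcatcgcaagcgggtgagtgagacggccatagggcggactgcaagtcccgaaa

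Of the 8 dosage compensation genes, 1 had a conservative peak with its summit inside it or at most 2000 bp away, and that gene was mof. The conservative list holds the calls whose rank repeated between the replicates at an irreproducible discovery rate (IDR) of at most 0.01, which is a −log10 IDR of at least 2. The same count over all genes gave 5302 of 18277, or 29.0%. Among protein-coding genes it was 31.2%, among the 2813 genes of the X it was 30.9%, and among the 15173 genes no longer than mle, the longest of the 8 at 5.92 kb, it was 23.6%. No member had a conservative peak inside its own gene, against 12.9% of all genes, and none had one within 500 bp of its own transcript start, against 13.9%. A count of 1 in 8 genes is too small to be read as above or below these shares, and no test was made.

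The count was the same in the pooled list, where mof was again the single gene and the share over all genes was 31.2%. In the thresholded list of replicate 1 it was 1 gene, mof, against 24.7% of all genes. In that of replicate 2 it was 0 genes, against 20.7%. No peak at the 8 genes was therefore present in the thresholded lists of both replicates.

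mof codes for the histone acetyltransferase of the complex and lies on the X at 5873840-5876853 on the minus strand (FBgn0014340). The peak, X:5873107-5873496, had its summit at 5873302, which is 538 bp past the 3′ end of mof. The same summit was 55 bp from the transcript start of GAA1, the next gene on the same strand, and lay in its 5′ UTR; GAA1 codes for a subunit of the enzyme that attaches GPI anchors to proteins. Its signal value was 129.9, rank 2183 of 5692 conservative peaks, whose median signal value was 103.9. The signal value is the authors' own, with no scale stated, and is compared only within 1 list.

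The replicates differed at this site. Replicate 1 had a thresholded peak there with a signal value of 101.1 and a −log10 IDR of 4.33, its summit 51 bp from the start of GAA1. Replicate 2 had a call with a signal value of 43.18 and a −log10 IDR of 1.95, just below the threshold of 2, its summit 102 bp from that start and inside the GAA1 coding sequence. In their own ranked lists these were rank 1529 of 89889 calls and rank 3642 of 87752. Both calls thus stood high in their replicate, above 98.3% and 95.8% of its calls, and 1 of them passed. In the conservative list, made from the pair, the −log10 IDR was 3.26.

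The word GTTGTTG, which is CAACAAC on the other strand, lay 3 bp from the summit of this peak. None of the other 5 words searched lay within 50 bp of it. The mof gene itself, 3.01 kb long, held 5 of the 9 ranked calls in its window, with signal values from 8.351 to 38.28. The highest of these was 317 bp inside the gene, in coding sequence, and had a signal value of 19.78 in replicate 1, while replicate 2 had no call within 500 bp of the mof start in its own list.

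**Figure D1:**
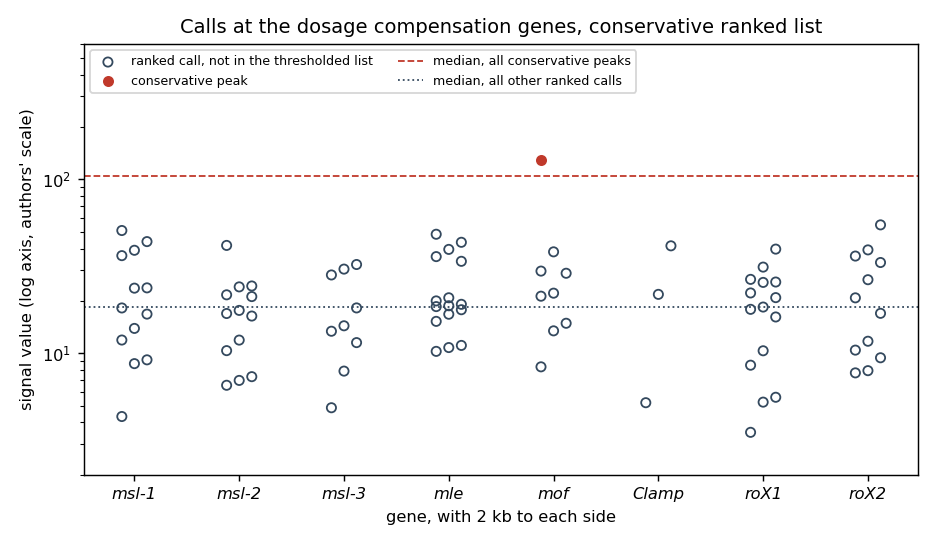
Signal value, on a log axis, of every call of the conservative ranked list with its summit in 1 of the 8 genes or within 2 kb. The filled point is the conservative peak at mof, at 129.9, above the dashed median of all conservative peaks (103.9), and the 89 open points are calls that missed the threshold, around the dotted median of such calls (18.46).

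The other 7 genes were not empty of calls. The conservative ranked list, which keeps calls that missed the threshold, had 90 calls at the 8 genes out of 126636 in all, with 43 inside a gene and 47 outside. Besides the mof peak, the 89 calls had a −log10 IDR of at most 1.65. The median signal value of the 90 was 18.5, beside 18.46 for all calls of that list that missed the threshold. Such calls missed the threshold on repeated rank, so they are given as levels and not as binding sites. The plot of signal by gene shows the 7 other genes in a similar range: the strongest call of each was between 32.4 and 54.7. Some neighbouring calls repeated the same pair of replicate values, so the 90 calls held 85 distinct pairs.

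The strongest of these calls is read against the 8618 protein-coding genes that also had calls but no conservative peak, whose strongest calls had quartiles of 31.5, 39.6 and 48.8. The strongest call of msl-3 was above that of 27.8% of them, roX1 50.2%, Clamp 55.3%, msl-2 56.1%, mle 73.5%, msl-1 79.4% and roX2 85.9%. The roX genes are non-coding, so for them this is a comparison with another kind of gene. The 7 thus stood on both sides of the median of such genes.

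msl-1, the scaffold gene (FBgn0005617, 2L:18683720-18688800, minus strand, 5.08 kb), had 13 calls. The strongest, with a signal value of 50.77, was not in msl-1 but 1314 bp upstream, in the coding sequence of its neighbour CG10336, with matching replicate signal values of 19.01 and 33.99 (in the order of the columns of the list, called first and second). At its own start a call 170 bp inside the 5′ UTR had a signal value of 43.84 and a −log10 IDR of 1.13, the highest at this gene in the conservative list. In the pooled list the −log10 IDR was 1.39 for this call and 1.72 for the call in CG10336. The call at the msl-1 start was also seen in each replicate's own list, with signal values of 19.28 in replicate 1 and 24.2 in replicate 2. These signal values were close, with summits 205 bp inside the gene in replicate 1 and 89 bp in replicate 2, and neither call passed.

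msl-2, the gene whose translation SXL blocks (FBgn0005616, 2L:3462218-3466112, minus strand, 3.9 kb), also had 13 calls. Its strongest call, with a signal value of 41.68, was 35 bp upstream of its 5′ end and 10 bp from the start of ND-PDSW, a gene for a mitochondrial complex I subunit that runs the other way. This shared start region had 23.63 in replicate 1 and 17.91 in replicate 2. The −log10 IDR was 0.835 in the conservative list and at most 0.926 in any of the 4 ranked lists, far from the threshold. The other 12 calls had signal values of 24.36 or less, and a call at one gene start here could not be assigned to msl-2 or to ND-PDSW.

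msl-3, the chromodomain protein gene (FBgn0002775, 3L:7123213-7125533, minus strand, 2.32 kb), had the lowest strongest call of the 8 genes. It had 9 calls, and the strongest, with a signal value of 32.37, was 641 bp inside the gene in coding sequence. The strongest calls of the single replicates at this gene, also in its coding sequence, had 21.96 in replicate 1 and 18.57 in replicate 2. They were at different places, 391 bp from the start in replicate 1 and 641 bp in replicate 2. No call within 500 bp of its start was above 18.22 in the conservative list.

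mle, the RNA helicase gene (FBgn0002774, 2R:5974857-5980778, minus strand), had 16 calls in the conservative ranked list, the most of any member, and the strongest of them was again at a neighbour. This call, with a signal value of 48.32, was 464 bp past the 3′ end of mle and 8 bp from the start of BubR1, a spindle checkpoint gene. Replicate 1 had 34.66 there with a −log10 IDR of 1.95 in its own list, just below the threshold, and the second matching value was 14.15. The −log10 IDR of this call was 0.237 in the conservative list, far below the threshold, and 1.68 in the pooled list. Within 500 bp of an own start of mle, the highest call had a signal value of 39.54.

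Clamp, the gene for the GA-repeat-binding recruiter (FBgn0032979, 2L:22165720-22169143, minus strand, 3.42 kb), had the fewest calls, 3, and none of the 3 was inside the gene. The strongest was 45 bp upstream of its 5′ end, with a signal value of 41.45 and a −log10 IDR of 1.47. The strongest calls within 500 bp of the start had signal values of 22.56 in replicate 1 and 25.78 in replicate 2. These values were close, but the summits were 239 bp upstream in replicate 1 and 40 bp in replicate 2. In their own lists the −log10 IDR was 0.17 and 0.131. Replicate 1 also had a call in the Clamp 5′ UTR, 503 bp from the 5′ end, with a signal value of 31.49. In the conservative list Clamp had the highest −log10 IDR of the protein-coding members other than mof, and it was below the threshold.

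roX2 (FBgn0019660, X:11579065-11580432, plus strand, 1.37 kb) had the strongest call of the 7 genes without a conservative peak. It had a signal value of 54.71 and a −log10 IDR of 1.65, both higher than at any other call of the conservative ranked list at these genes except the mof peak. The summit was 1301 bp from the 5′ end, near the 3′ end of the roX2 exon, and 406 bp from the start of nod, a kinesin-like gene for chromosome segregation. The matching replicate values were 23.06 and 31.54. In the lists of the single replicates the −log10 IDR over all calls at roX2 was at most 0.329 in replicate 1 and 0.813 in replicate 2. The GA words of roX2 printed above lie 149 and 96 bp from this summit, outside the 50 bp window.

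roX1 (FBgn0019661, X:3857230-3862697, minus strand, 5.47 kb) had 15 calls, and the strongest lay outside it, in the coding sequence of ec, with a signal value of 39.69 and matching values of 21.08 and 16.02. Within the roX1 exon the strongest call had a signal value of 31.28, 1395 bp from the 5′ end, with matching values of 13.15 and 18.35. The GA word of roX1 printed above was 37 bp from that summit. Its −log10 IDR was 0.518, and no call at roX1 was above 0.635 in the conservative list or above 1.32 in any of the 4 lists. The roX genes, which make the RNAs of the complex and lie on the X, had no thresholded peak in any list.

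Within 500 bp of an own transcript start, the highest calls of the conservative ranked list had signal values of 43.84 at msl-1, 41.68 at msl-2, 41.45 at Clamp, 39.54 at mle and 38.28 at mof. They were lower at roX1 (25.67), msl-3 (18.22) and roX2 (16.96). None of the 8 starts had a call that passed. The mle call was 55 bp from a start inside the gene, and its matching replicate values were 15.44 and 18.72. Neither matching call was found with the same coordinates and signal value in its replicate's own ranked list. In the single replicate lists the highest calls within 500 bp of an mle start were at another place, upstream of its 5′ end. They had 7.547 in replicate 1, at 90 bp, and 3.648 in replicate 2, at 35 bp. In those lists the calls at the starts of msl-1, msl-2 and Clamp ranged from 17.91 to 25.78. At msl-3 the replicate 1 list had a call of 21.96 within 500 bp of the start. The starts of mof and msl-3 had no call within 500 bp in the replicate 2 list. In the conservative ranked list the msl-2 and Clamp calls lay just upstream of the gene, while the other 6 lay inside it.

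**Figure D2:**
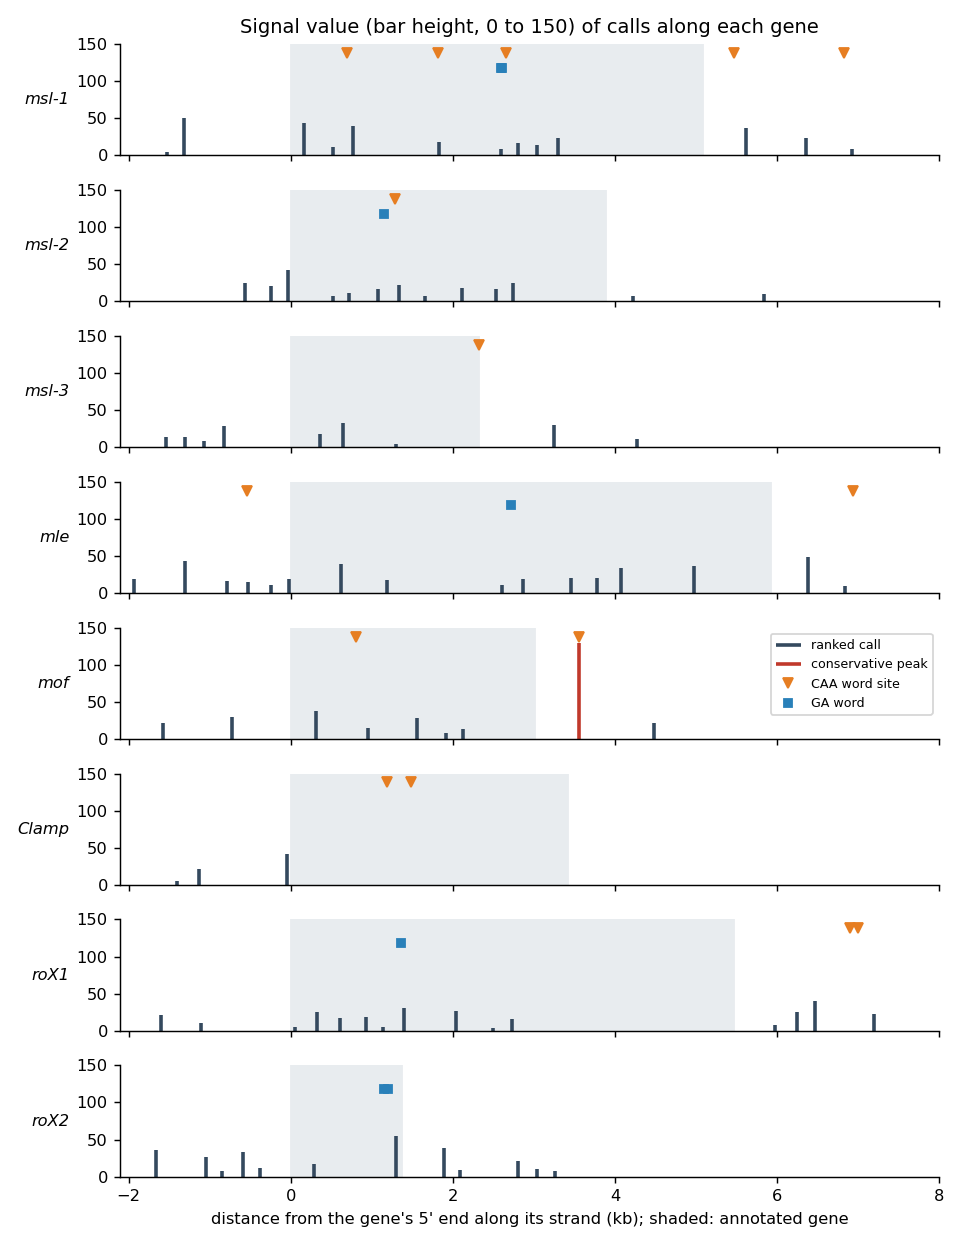
Calls of the conservative ranked list along each of the 8 genes, drawn to 1 scale from the 5′ end with 2 kb to each side. Bar height is the signal value, triangles are CAACAAC sites and squares are GAGAGAG words inside the genes. The 1 conservative peak, at 129.9, stands past the 3′ end of mof at a triangle, and the bars inside the genes stay below 60.

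The replicate columns of the conservative list give the spread at each call. They carry no replicate name in the file and are given as first and second value. The calls of the first column were found with the same coordinates and signal in the replicate 1 list for 70.9% of all 126636 calls and in the replicate 2 list for none. Those of the second were found in the replicate 2 list for 66.0% of calls and in the replicate 1 list for none. Of the strongest calls of the 7 genes without a peak, the first value was higher at msl-2, msl-3, mle and roX1 and lower at msl-1, Clamp and roX2. The plot of both columns shows that the 89 weak calls scatter to both sides of equal values.

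**Figure D3:**
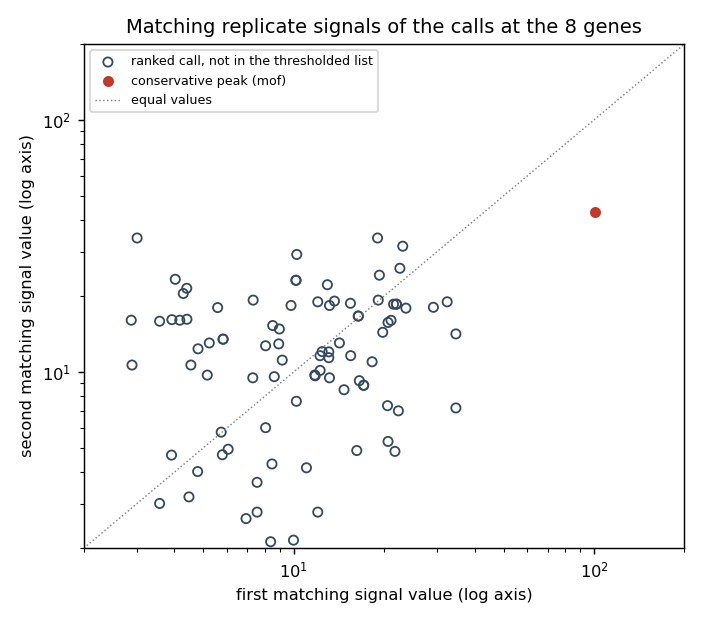
First (horizontal) and second (vertical) matching replicate signal value at each of the 90 calls at the 8 genes, both on log axes, with the dotted line at equal values. The filled point is the mof peak at 101.1 and 43.18; the open points all lie below 40 on both axes.

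Since 7 genes had no peak, the distance to the nearest conservative summit was also read. It was 538 bp for mof, 5.21 kb for msl-1, 5.93 kb for roX1, 8.94 kb for msl-3, 12.2 kb for msl-2, 21.1 kb for roX2, 39.6 kb for mle and 43.7 kb for Clamp. Over 18164 genes the median was 7214 bp and the quartiles were 1249 and 21230 bp. mof was closer than 79.9% of genes, and mle and Clamp were closer than 13.4% and 12% of them. The members thus covered most of the range of all genes.

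The nearest summits belonged to other genes. That of msl-3 was among the highest of the list, with a signal value of 1198 and rank 40, and had melt, a growth regulator, as its nearest start. That of msl-2 had a signal value of 205.7 and Thor, a translation inhibitor that binds the cap-binding factor eIF4E, as its nearest start. That of roX1 was in an intron of yin with 103.6. That of roX2 was in an intron of rho-4 with 148.9. CAACAAC was present at the nearest summit of msl-3, mle, mof, Clamp and roX2, and absent from that of msl-1, msl-2 and roX1. Over all conservative peaks 45.1% had the word, and so few summits are not read against that share.

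The CAACAAC word was present at 7 of the 8 genes, counting the gene and 2000 bp to each side, and roX2 was the member without it. Over all genes 76.2% had the word in such a window. There were 15 sites at the members, after words within 50 bp were merged, and 7 of them were inside a member, all in coding sequence: 3 in msl-1, 2 in Clamp and 1 each in msl-2 and mof. Of the 15 sites, 1 had a conservative summit within 50 bp, the site at the start of GAA1, and over the genome 6.46% of sites had one. Both counts were near the share over all genes or sites.

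Of the 7 sites inside members, 1 had a summit of the conservative ranked list within 50 bp. Over the genome 22.2% of sites in coding sequence did, so a count of 1 is near that share. The site was the msl-1 word GTTGTTG printed above, 10 bp from a call with a signal value of 18.21 and matching values of 4.284 and 20.47. Neither of these matching calls was found in its replicate's own ranked list. In the replicate 2 ranked list, another coding site of msl-1 had a summit within 50 bp, with a signal value of 13.49. The overlapping CAACAAC words of Clamp were 1518 bp from the nearest summit of the conservative ranked list, and the single word 1230 bp. At roX1, a site of 5 words over 70 bp in the coding sequence of ec was 259 bp from the nearest ranked summit, whose signal value was 22.21. It had more words than any other site at these genes.

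Read over the genome, a single word in coding sequence seldom had a peak. The share of 6.46% was over 42260 CAACAAC sites. In coding sequence it was 0.801% of 5366 sites with 1 word and 17.5% of 1540 sites with 2 words or more. In 5′ UTRs it was 12.1% of 1699 sites with 1 word and 44.1% of sites with more. Of the 7 sites inside members, 6 had 1 word and the Clamp site had 2 overlapping words, and the site under the mof peak was a single word in a 5′ UTR. The split by number of words was made after the data had been seen, so it is a description of where these sites stand.

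**Figure D4:**
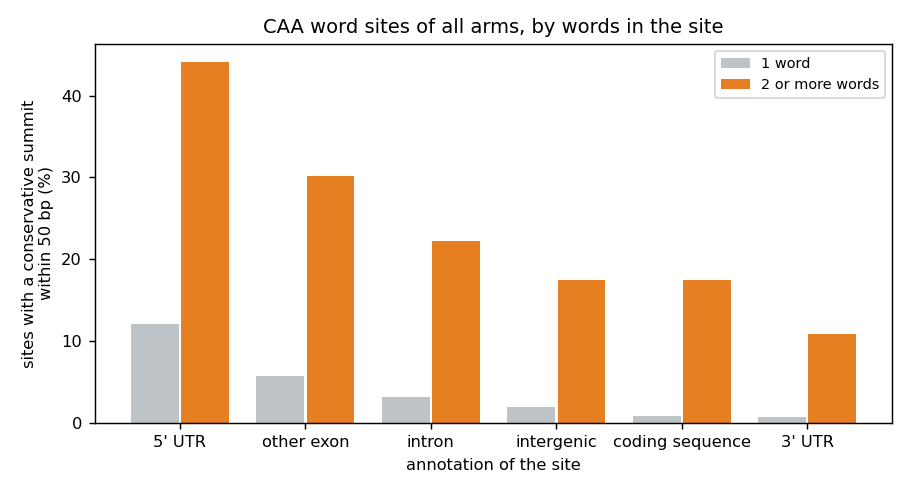
Share of all CAACAAC sites (percent, bars from 0) with a conservative summit within 50 bp, by the annotation of the site and by 1 word (grey) or 2 or more words (orange). Single words in coding sequence, the kind found in msl-1, msl-2 and mof, had 0.801%, and single words in a 5′ UTR, the kind at the start of GAA1, had 12.1%.

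The GA word was read because CLAMP binds GA repeats. GAGAGAG lay within 50 bp of the summit of 4.90% of conservative peaks and 1.38% of weaker calls, and it was in the gene or within 2000 bp for 46.0% of all genes. Of the 8 genes, msl-1, msl-2, mle, roX1 and roX2 had it inside the gene, and msl-3, mof and Clamp did not. These are words inside the gene, so they are not set against the share of 46.0%, which takes in 2000 bp to each side. No share over all genes is given for the gene alone, so this is not read as a result about the members. Of the 89 weak calls at the members, 2 had the word within 50 bp of the summit, the roX1 call of 31.28 and an msl-1 call of 8.713. The strongest call at roX2 did not.

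The wider pathway was read from a list of 28 genes: regulators of msl-2 and associates of the complex, the NSL complex in which MOF also works, the chromosome 4 protein gene Pof, genes that count the X or decide sex, and Trl, which codes for the GAGA factor. Of the 28, 13 had a conservative peak, against 29.0% of all genes, with 33 peaks in all. Many of these genes are long. Of the 16 no longer than mle, 3 had a peak, against 23.6% of all genes of that length.

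Among regulators and associates 6 of 8 had a peak, against 29.0% of all genes. The 6 are long, from 7.78 to 37.1 kb, while Top2 and Su(var)3-7, without a peak, are 6.13 and 5.67 kb. The count is therefore not read as a result about this group. Sxl, the switch gene that blocks msl-2 in females, had 2, and the thresholded list of each replicate had a peak near both. The first, X:7097952-7098055, had its summit 34 bp from the 5′ end in the 5′ UTR, with a signal value of 183.7 and matching values of 118.7 and 71.14. There the summit was 23 bp from the 5′ end in replicate 1 and 67 bp in replicate 2, and the replicate 2 summit had no CAACAAC within 50 bp. The conservative peak was much narrower than the replicate 2 peak, X:7097818-7098153, and they did not reach the reciprocal overlap of 0.5 used for shared peaks. The second, X:7096580-7096969, was in an intron 1278 bp from the 5′ end, with 162.4 and matching values of 87.28 and 76.46. Both had the word, shown here on the minus strand, for chrX:7098026-7098054 and then chrX:7096783-7096811.
Sxl, 5′ UTR: cacactgctttGTTGTTGccgaagaagga
Sxl, intron: ggcgaaaaagaCAACAACacacatgcata

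The regulator Hrb27C, an RNA-binding protein that acts with SXL on msl-2 mRNA, had 564.5 in an intron, with matching values of 339.0 and 261.2. JIL-1, a histone H3 kinase enriched on the male X, had 277.9 with 159.7 and 135.4. Unr, the SXL partner in blocking msl-2 translation, and how and Set2 also had peaks, while Top2 and Su(var)3-7 had none. The Set2 peak was upstream of that gene, in the 5′ UTR of CG1998. msl-2 itself, on whose mRNA SXL, UNR and the Hrb27C protein act, had none.

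In the NSL complex 3 of 6 genes had a peak, against 29.0% of all genes, a count too small to be read against that share. Rcd5 had the highest signal value of the 28 genes, 1285, rank 30 of 5692, with its summit 234 bp inside the gene in coding sequence. The matching values were 735.3 and 537.2, and the word was at the summit. The other peaks of this group had signal values of at most 144.7, and nsl1, dgt1 and Rcd1 had none. The strongest peak at wds was in an intron of egh, and the peak at MBD-R2 was intergenic. Pof, whose protein coats chromosome 4, had none.

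Of the 12 genes that count the X or decide sex, 3 had a peak, which is near the share of 29.0% of all genes. run, an X-linked activator of Sxl, had 1197 in its 5′ UTR with matching values of 682.2 and 510.6. gro, a corepressor, had 590.9, 1605 bp upstream, with 374.9 and 212.0. dsx, the last sex determination gene of the pathway, had 451.5 in an intron with 272.5 and 185.3. The 9 others had none in the conservative list. Of these, dpn had 2 peaks in the pooled list, 3 in the thresholded list of replicate 1 and 2 in that of replicate 2. tra had 1 in the pooled list, 1 in replicate 1 and 0 in replicate 2.

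Trl had 7 conservative peaks, the most of the 28 genes. The strongest had a signal value of 310.1 in an intron with matching values of 134.5 and 178.7, and no CAACAAC word. Of the 7 peaks, 3 had the word, against 45.1% of all conservative peaks. Over the 13 genes, the strongest peak had the word in 8, a count too small to be read against that share. The 8 genes named here with values were taken in order of signal, and all had a stronger peak than mof. Of the others with a peak, how, Unr and wds were also above mof, and Set2 and MBD-R2 were below it. The plot of the wider list shows both matching replicate values for each of the 13.

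**Figure D5:**
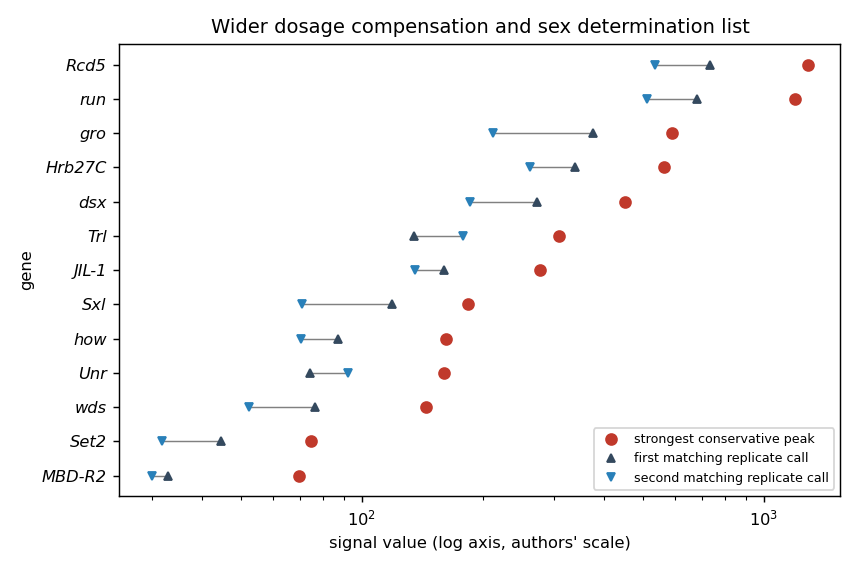
Signal value, on a log axis, of the strongest conservative peak (red) of the 13 genes of the wider list that had one, with the first (dark) and second (blue) matching replicate signal joined by a line. Values run from 69.9 at MBD-R2 to 1285 at Rcd5, and the first matching value was the higher at all 13 genes but Trl and Unr.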

How the data were processed

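The authors deposited 8 peak lists on dm6: a ranked and a thresholded list for each replicate, for the pair of true replicates (conservative) and for both pooled, per the file headers and labels. No header or label names the aligner or the peak caller. Depth is unknown, so no counting interval is given. Each list gives a signal value as the authors deposited it, a score, and, in the ranked lists, the −log10 IDR as deposited; thresholded calls have a −log10 IDR of at least 2. Signal values were compared only within 1 list, or with the replicate values held in the same list.

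A call belonged to a gene when its summit lay in the gene or within 2000 bp. Genes came from Ensembl release 115 on the Release 6 assembly, and sequences from that assembly. Words were searched on both strands within 50 bp of a summit: CAACAAC, its variants with G in place of A at the third or sixth letter or at both, CAACAAA, which overlaps it, and the GA repeat GAGAGAG. Replicate peaks were shared at a reciprocal overlap of at least 0.5. No test was run: counts stand beside the same share over all genes. The members and lists were chosen with earlier results of these data known. All 8 members are named with their thresholded calls and their strongest calls. Of the wider list, genes with a conservative peak are named with values in order of signal up to 8. Alternatives changed the distance, the list, the IDR, the least signal, the window, the word and the overlap. The counting was checked on simulated peaks. Calculations used Python 3.11.15, numpy 2.4.6, pandas 2.3.3, scipy 1.17.1 and matplotlib 3.10.9.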

Additional observations from a re-analysis of the deposited data

How the results depend on the processing

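The count of 1 gene with a peak rests on the mof site and on replicate 1. It was 0 genes and 0 peaks with a distance of 0 or of 500 bp, since the summit is 538 bp from mof, and 1 gene with 2 peaks at 5000 bp. Over the single replicate lists both counts ranged from 0 to 1, and so did the count with CAACAAC. The word count was 0 for the longer word CAACAACAA. The share of all genes with a peak was 12.9% at 0 bp and 18.4% at an IDR of at most 0.001. Calls below the threshold at the members numbered 56 to 70 in the single replicate lists. Of the 52 alternative values, 40 moved by less than 1.5 times or the spread between replicates, and the wider list had 10 to 19 genes. The shares for genes on X and for genes no longer than mle were added after seeing the data. No paired analysis was possible because there is 1 group and no test. Read depth is unknown, so a weak site could not be told from an absent one.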
